A study of Mus musculus with 9 samples.

Results

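The cathepsins are proteases of the lysosome, and 10 of their genes were taken from the authors' expression table by gene symbol: Ctss, Ctsl, Ctsf, Ctso, Ctsb, Ctsz, Ctsh, Ctsc, Ctsd and Ctsa. These were 10 of 54513 listed genes, and all 10 were among the 18690 genes with enough reads to be tested. The family was chosen with results of these data known, above all the level of Ctss in mice given tryptophan against mice on the diet alone. In that comparison the values of the 10 genes are therefore a description. They are given with no p-value, and the number that passed is given beside the number or share of all genes, with nothing read from it.

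The study sequenced polyadenylated RNA from the brains of 9 mice, of a tissue given as hippocampus in the labels. All mice were on a high-fat diet for 12 weeks, 3 in each of 3 groups. The Trp group had tryptophan added to that diet at 0.5% by weight, the IPA group was gavaged daily with 100 mg per kg of indole-3-propionic acid (IPA), a product that gut bacteria make from tryptophan, and the HFD group had the diet alone. No chow-fed group was among the libraries, and strain, sex and age are not given in the labels. The table's columns carry codes that the labels pair with these samples without explaining them, so that the groups rest on the labels alone.

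Cathepsins are made as inactive precursors, carried to the lysosome largely by mannose 6-phosphate receptors, and activated by acid pH and by cleavage. Most are papain-like enzymes with a cysteine in the active site, held in check by cystatins, while cathepsin D is an aspartic protease and cathepsin A a serine carboxypeptidase. In the brain most cells need them for protein turnover, and cathepsin S is known as a protease of microglia and other myeloid cells, where it trims the invariant chain of MHC class II and stays active at neutral pH.

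Total counts ran from 40621084 to 50938746 per library, and CPM are the counts scaled to library size. The limit that a gene without counts could reach lay between 0.0584 and 0.0750 CPM, which covers counting error only. No pair of libraries of a group agreed within counting noise, with a chi-square of the counts of 13.5 to 71.8 per gene. HFD 3 stood apart from the other HFD libraries, with the fewest striatal transcripts (897 CPM summed over 11 markers, against 1809 to 3661 CPM in the other libraries) and the most oligodendrocyte transcripts (16181 CPM over 10 markers, against 8204 to 10711 CPM). Markers of hippocampal neurons were present in every library at 211 to 350 CPM summed over 10 genes, in each library below the striatal sum. Sums over different genes do not give the share of a region, and how cleanly the hippocampus was taken was not tested. The libraries differed in transcripts of neighbouring regions, and those of choroid plexus summed to 37.9 to 1423 CPM over 8 markers. Values without HFD 3 are given where they change a call. p-values set a difference between groups against the spread between mice of a group, as estimated over all 9 libraries. That spread includes these differences in transcripts of neighbouring regions.

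Ctss and the holders of a lysosomal motif are shown first by their promoters, since Ctss was the family member with the largest difference, while Ctsd and Ctsa carry the sequence known for lysosomal genes. RefSeq promoters of build GRCm38.p6 matched 8 of the 10 genes by symbol, with 2 promoters for Ctsa and none matched for Ctsb and Ctsh. The 250 bases before each start are printed 5′ to 3′ on the gene's own strand, with capitals for the motif letters. The Ctss sequence is chr3:95526536-95526785 on the + strand, that of Ctsd is chr7:142387828-142388077 on the - strand, and that of the second Ctsa promoter is chr2:164833523-164833772 on the + strand.
Ctss: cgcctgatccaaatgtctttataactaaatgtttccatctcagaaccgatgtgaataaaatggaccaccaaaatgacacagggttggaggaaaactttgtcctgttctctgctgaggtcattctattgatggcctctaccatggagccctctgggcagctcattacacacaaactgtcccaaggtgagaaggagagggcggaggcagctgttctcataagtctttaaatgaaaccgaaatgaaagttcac
Ctsd: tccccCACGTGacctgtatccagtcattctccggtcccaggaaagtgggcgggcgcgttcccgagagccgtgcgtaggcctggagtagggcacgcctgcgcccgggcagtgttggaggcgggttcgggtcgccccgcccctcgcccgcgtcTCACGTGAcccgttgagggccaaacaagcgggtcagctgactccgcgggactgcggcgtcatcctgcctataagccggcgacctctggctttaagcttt
Ctsa, second promoter: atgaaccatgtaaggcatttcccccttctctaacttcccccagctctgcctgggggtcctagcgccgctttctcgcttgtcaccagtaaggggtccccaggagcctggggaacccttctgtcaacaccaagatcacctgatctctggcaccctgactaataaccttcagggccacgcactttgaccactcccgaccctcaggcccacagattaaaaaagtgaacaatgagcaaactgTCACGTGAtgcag

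CACGTG is the E-box, and TCACGTGA, which contains it, is the core of the element through which the factor TFEB is known to act on lysosomal genes. GAGGAAGT is a site type of PU.1, a factor of myeloid cells. Each was searched on both strands. CACGTG was found in 4 of the 9 cathepsin promoters, those of Ctsd, Ctsl, Ctsf and the second of Ctsa, and in 6.02% of 32851 promoters of the same length. In Ctsd its first base lay 245 and 98 bases before the start, in Ctsl 236, in Ctsf 79 and in Ctsa 12. The longer TCACGTGA was in 2 of the 9, Ctsd and the second Ctsa promoter, and in 0.785% of all promoters. GAGGAAGT was in 1, that of Ctsc, on the minus strand at 151 bases before the start, and in 2.44% of all promoters. None of the 3 letter strings was in the windows of Ctss, Ctsz, Ctso or the first Ctsa promoter. The windows differed in base composition, with 44.8% G and C in Ctss, 67.2% in Ctsd and 54.4% in the second Ctsa promoter. A match is a string of letters and not a bound site.

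By level per gene length, given as FPKM (fragments scaled to transcript length and to library size), the family spanned 1.94 to 199 FPKM in mean. Ctsd, the main aspartic protease of the lysosome, averaged 199 FPKM over the 9 libraries and lay above 98.6% of the tested genes. Ctsb, a cysteine protease that cuts both within chains and from their ends, averaged 128 FPKM and lay above 97.5% of them. In all 9 libraries Ctsd was above Ctsb and Ctsb above every further member.

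A middle group of 5 genes lay close together, with Ctsl at 27.7, Ctsa at 25.8, Ctss at 23.2, Ctsf at 23.0 and Ctsz at 21.2 FPKM on average. Their order was not stable: Ctsl was above Ctsa in 5 of 9 libraries, Ctsa above Ctss in 6, Ctss above Ctsf in 4 and Ctsf above Ctsz in 6. Ctso followed at 9.71, Ctsh at 5.46 and Ctsc at 1.94 FPKM, each above the next in all 9 libraries. Ctss varied most among the 10, with its highest library 2.68 times its lowest, against 1.24 to 1.73 times for the other 9.

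**Figure D1:**
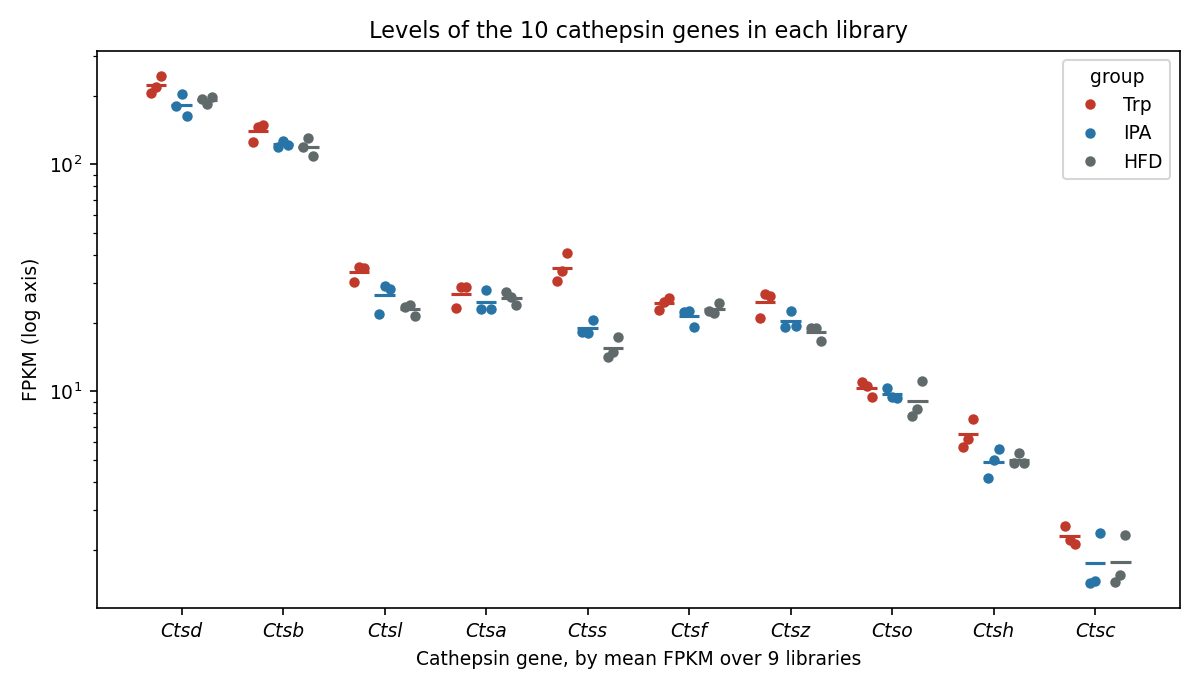
Level of each cathepsin gene in every library, as FPKM on a log axis, with genes in order of mean level. Points are single mice in the Trp, IPA and HFD groups and bars are group means; Ctss stood at 30.7 to 40.7 FPKM in Trp mice, 18.1 to 20.6 in IPA mice and 14.1 to 17.4 in HFD mice, while Ctsd and Ctsb stayed on top throughout.

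Summed over the 10 genes, the level per length was 479, 533 and 570 FPKM in Trp 1 to 3, with 421, 467 and 413 FPKM in the IPA mice and 435, 436 and 430 FPKM in the HFD mice. The Trp libraries were above all others, and those of IPA lay on both sides of HFD. FPKM as deposited ran higher in Trp in general: the median over genes of the ratio of group means was 1.05 for Trp against HFD in FPKM, and 0.996 in CPM. For Trp against IPA this median was 1.06 in FPKM and 0.998 in CPM. Ctsd supplied 42.3% ± 1.12 of the sum in Trp, 42.0% ± 2.19 in IPA and 44.4% ± 2.00 in HFD (SD, n = 3 each). Ctss supplied 6.64% ± 0.42 in Trp, 4.40% ± 0.55 in IPA and 3.57% ± 0.42 in HFD (SD, n = 3 each), and in its share the Trp mice did not overlap the other groups. In the share of Ctsa they did not overlap either, on the lower side. It ran from 4.88% to 5.39% in Trp, 5.46% to 6.01% in IPA and 5.58% to 6.28% in HFD. Shares of a sum depend on each other, and Ctss was chosen for its level in Trp.

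Ctss, the cathepsin S of microglia and antigen-presenting cells, was the member on which the groups differed most. Scaled to library size, it stood at 45.9, 48.4 and 57.5 CPM in Trp 1 to 3, with 28.7, 27.0 and 31.7 CPM in the IPA mice and 21.4, 22.4 and 27.0 CPM in the HFD mice. The lowest Trp mouse lay above the highest mouse of both other groups, and the lowest IPA mouse and the highest HFD mouse were level at 27.0 CPM. Group means were 50.6 ± 6.11 CPM in Trp, 29.1 ± 2.37 in IPA and 23.6 ± 2.97 in HFD (SD, n = 3 each). Ctss was 2.14-fold higher in Trp than in HFD, a log2 fold change of 1.10 with a standard error of 0.12 and a 95% interval of 0.84 to 1.36. Without HFD 3 the log2 fold change was 1.21. In the authors' deposited table it was 1.10 with a call of up, and in the same table no other member had a call in either comparison with HFD. For Trp against HFD that table gave a value for 15337 genes, and called 48 up and 17 down. The table places Ctss on chromosome 3 from 95434097 to 95463714 on the + strand, coordinates whose build could not be settled.

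The other papain-like endopeptidases differed less between Trp and HFD. Ctsl, a broad endopeptidase, stood at 88.0, 88.0 and 87.7 CPM in Trp 1 to 3 and at 72.4, 65.2 and 82.3 CPM in HFD 1 to 3. The groups did not overlap, and the log2 fold change was 0.26 (SE 0.09, 95% interval 0.07 to 0.46). Ctsf, whose human form is mutated in a neuronal ceroid lipofuscinosis, stood at 49.3 to 51.9 CPM in Trp and at 47.8 to 54.5 CPM in HFD, and its log2 fold change was -0.01 (95% interval -0.21 to 0.19). Ctso, a less studied family member, stood at 34.0 to 42.2 CPM in Trp and at 30.1 to 44.1 CPM in HFD. Its highest HFD value was that of HFD 3. Its log2 fold change was 0.11 with all libraries and ran from 0.0042 to 0.30 when a library was left out, highest without HFD 3.

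Among enzymes that also or only cut from chain ends, Ctsb stood at 658, 722 and 739 CPM in Trp 1 to 3 and at 633, 687 and 592 CPM in HFD 1 to 3. These values overlapped, and the log2 fold change was 0.15 (95% interval -0.04 to 0.33). Ctsz, a carboxypeptidase known from myeloid cells, stood at 33.3, 40.8 and 39.6 CPM in Trp 1 to 3 and at 30.7, 30.6 and 27.6 CPM in HFD 1 to 3. All Trp mice were above all HFD mice, and the log2 fold change of 0.35 (SE 0.10, 95% interval 0.13 to 0.57, 1.28-fold) was the next largest after Ctss. Ctsh, an aminopeptidase, stood at 9.77, 10.4 and 12.6 CPM in Trp 1 to 3 and at 8.71, 9.58 and 9.02 CPM in HFD 1 to 3. These groups did not overlap either, with a log2 fold change of 0.26 (95% interval -0.03 to 0.56). Ctsc, the dipeptidyl peptidase that activates serine proteases of immune cells, rested on 176 to 382 counts per library and had the widest interval of the 10. It stood at 7.44, 6.17 and 5.74 CPM in Trp 1 to 3 and at 4.30, 4.74 and 7.17 CPM in HFD 1 to 3, where HFD 3 alone was high. Its log2 fold change was 0.26 (95% interval -0.25 to 0.76), and ran from 0.12 to 0.51 when a library was left out, highest without HFD 3.

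Outside the cysteine enzymes, Ctsd stood at 480, 488 and 544 CPM in Trp 1 to 3 and at 465, 435 and 475 CPM in HFD 1 to 3. The groups were apart by a narrow gap, with a log2 fold change of 0.14 (95% interval -0.06 to 0.34). Ctsa, which also protects beta-galactosidase and neuraminidase in the lysosome, stood at 87.4, 90.6 and 98.8 CPM in Trp 1 to 3 and at 92.7, 89.6 and 87.9 CPM in HFD 1 to 3. Its values overlapped, and the log2 fold change was 0.03 (95% interval -0.15 to 0.22). Over the family, 9 of 10 estimates for Trp against HFD were above 0, with a median log2 fold change of 0.20, against 49.5% of all tested genes and a median of -0.0022.

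By the quasi-likelihood test of edgeR, with p-values adjusted over all genes by Benjamini and Hochberg's method, 1 of the 10 (Ctss) passed an adjusted p under 0.05 for Trp against HFD, where 0.342% of the tested genes passed. Without HFD 3 it was 2 of 10, Ctsl being the second, where 1.69% of the genes then tested passed. In 5 of the 10 (Ctss, Ctsl, Ctsz, Ctsh and Ctsd) all Trp mice were above all HFD mice in CPM, which held for 8.06% of the tested genes. As the family was chosen from this comparison, nothing is read from these counts.

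**Figure D2:**
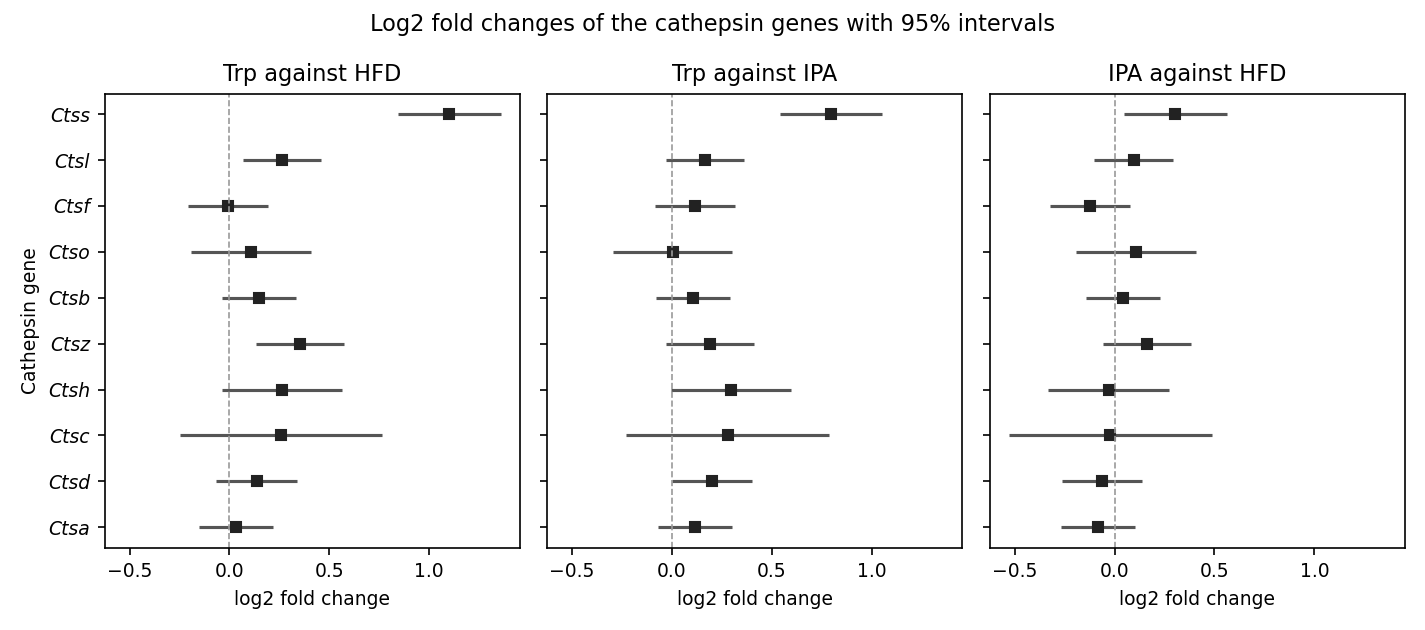
Log2 fold change (x axis) of each cathepsin gene, down the page by enzyme type, for Trp against HFD, Trp against IPA and IPA against HFD. Squares are edgeR estimates and lines their 95% intervals; Ctss lies at 1.10, 0.80 and 0.30 in the 3 panels, and the other 9 genes lie between -0.12 and 0.35.

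The second comparison set tryptophan itself beside its bacterial product. These molecules differ in structure, since IPA lacks the alpha-amino group of tryptophan, but they were given by different routes and amounts, in the diet at 0.5% by weight and by gavage at 100 mg per kg, so that their values stand side by side as values of these groups. Trp against IPA uses the same Trp mice as the comparison from which the family was chosen. Ctss was 1.74-fold higher in Trp than in IPA, with a log2 fold change of 0.80 (SE 0.12, 95% interval 0.54 to 1.05) and no overlap of the mice. It missed the threshold by edgeR, with an adjusted p of 0.102, and 2 of the tested genes had a smaller p. As Ctss was chosen for its level in these Trp mice, nothing is read from its p or its rank here. When a library was left out, the log2 fold change ran from 0.69 to 0.86 and the edgeR adjusted p from 0.032 without HFD 3 to 0.733 without IPA 1. Without HFD 3, 0.00523% of the genes then tested passed, and in the other 8 cases Ctss missed the threshold.

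Estimates for the other 9 genes in Trp against IPA ran from 0.003 for Ctso, which turned to -0.001 with RLE scaling, to 0.29 for Ctsh. Ctsd stood at 480 to 544 CPM in Trp and at 395 to 478 CPM in IPA, without overlap, with a log2 fold change of 0.20 (95% interval -0.002 to 0.40, edgeR adjusted p 0.987). Ctsl stood at 87.7 to 88.0 CPM in Trp and at 76.2 to 81.1 CPM in IPA, also without overlap, with a log2 fold change of 0.17 (95% interval -0.03 to 0.36, edgeR adjusted p 0.987). For Ctsc, the gene with the fewest counts, the interval ran from -0.23 to 0.79. By edgeR 0 of 10 passed, where 0% of the tested genes passed. At an unadjusted p under 0.05 there was 1 (Ctss), against 4.49% of all genes, and DESeq2 called 1 (Ctss), against 0.0803%. In CPM all Trp mice were above all IPA mice for 3 of 10 genes (Ctss, Ctsd and Ctsl), and for 5.61% of the tested genes. In FPKM, which ran higher in Trp in general, this also held for Ctsh and Ctsf.

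Between IPA and HFD mice the estimates for the family ran from -0.12 to 0.30 in log2. This comparison uses the same HFD mice as the one from which the family was chosen. Ctss had a log2 fold change of 0.30 (SE 0.12, 95% interval 0.05 to 0.56, 1.23-fold), with an adjusted p of 0.431 by edgeR. Ctsz had 32.0, 35.8 and 31.9 CPM in the IPA mice, against 30.7, 30.6 and 27.6 CPM in the HFD mice. All its IPA mice were above all its HFD mice, with a log2 fold change of 0.16 (95% interval -0.06 to 0.39, edgeR adjusted p 0.589). The most negative estimate was that of Ctsf, at -0.12 (95% interval -0.32 to 0.08, edgeR adjusted p 0.673). The highest upper bound of an interval was 0.56, that of Ctss, and the interval of Ctsc ran from -0.53 to 0.49.

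For IPA against HFD, 5 of 10 estimates were above 0 with a median of 0.01. By edgeR 0 of 10 passed, where 0.00535% of the tested genes passed, 1 (Ctss) had an unadjusted p under 0.05, against 10.4% of all genes, and DESeq2 called 0, against 0.899%. Without HFD 3 the number was also 0 of 10, where 0.272% of the genes then tested passed. Only Ctsz, 1 of 10 genes, had no overlap in CPM with IPA higher, which held for 7.19% of the tested genes. For Ctss the overlap depended on the unit: in FPKM the lowest IPA mouse stood at 18.1 and the highest HFD mouse at 17.4.

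Ctsl gave different sizes in the 2 deposited units. In FPKM it stood at 30.3, 35.4 and 35.0 in Trp 1 to 3, with 22.0, 29.1 and 28.3 in the IPA mice and 23.5, 23.9 and 21.5 in the HFD mice. The ratio of Trp to HFD means was 1.46 in FPKM and 1.20 in CPM. For 8 of the other 9 members the highest ratio of CPM to FPKM in a library was at most 1.08 times the lowest. For Ctsl this ratio ran from 2.55 in Trp 2 to 3.74 in HFD 3, a range of 1.46-fold, and for Ctsa the range was 1.16-fold. Per the labels' protocols the libraries do not mark strand, and in GENCODE M21 the exons of Ctsl overlap an antisense RNA and a pseudogene that had 0 to 1 counts. Exons of another gene also overlap those of Ctsb, Ctsd, Ctsz and Ctsa. Their neighbours on the opposite strand include Fdft1 at Ctsb, with 3839 to 5397 counts, and Nelfcd at Ctsz, with 1158 to 1839 counts, and reads where these overlap cannot be told apart. For Trp against HFD, Nelfcd had a log2 fold change of -0.05 (edgeR adjusted p 0.928) and Fdft1 one of 0.20 (edgeR adjusted p 0.379).

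**Figure D3:**
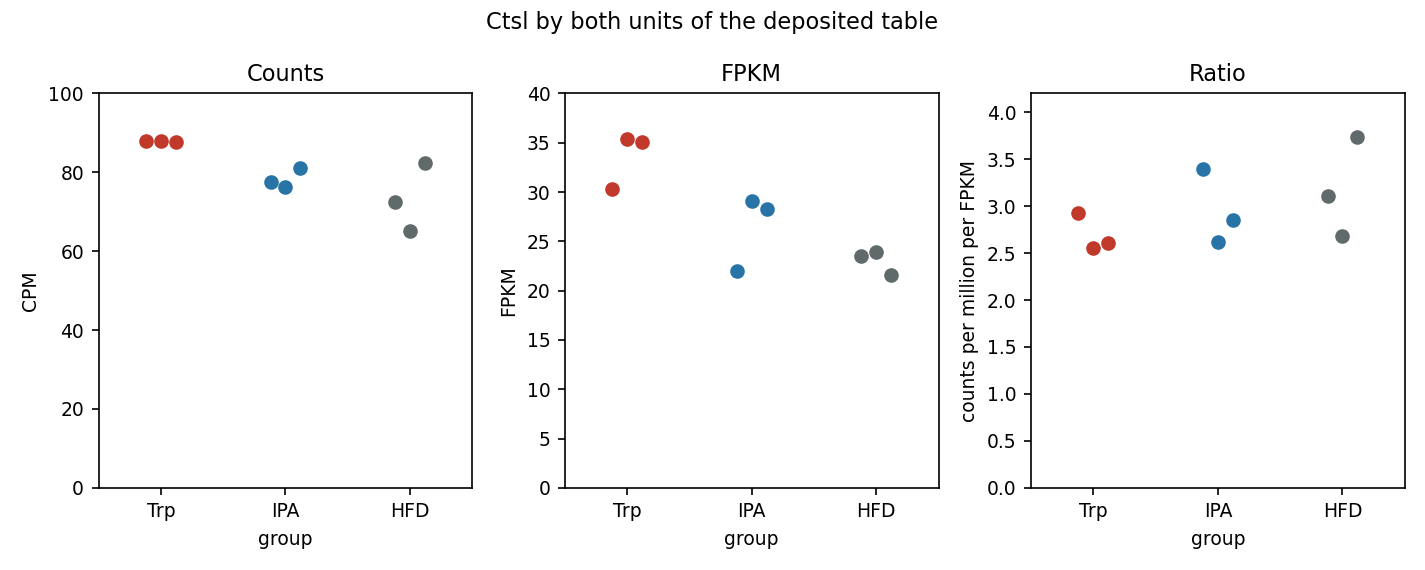
Ctsl in every library as CPM from the counts (left), as deposited FPKM (middle) and as the ratio of both (right), with points for the mice of the Trp, IPA and HFD groups. The Trp mice sit together at 87.7 to 88.0 CPM and spread from 30.3 to 35.4 FPKM, and the ratio is highest in HFD 3 at 3.74.

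The cell type for which Ctss is known was measured by 22 microglia markers, none of which was at 0. Like all gene lists here, they were chosen with earlier results of these data known. The numbers that passed are therefore given beside the shares of all genes, with nothing read from them. In Trp against HFD, 4 of the 22 rose by edgeR with adjusted p under 0.05, among them Selplg, a selectin ligand (log2 fold change 0.92, adjusted p 0.00803), and the complement genes C1qb (0.78, adjusted p 0.0139) and C1qa (0.74, adjusted p 0.0207). Of all tested genes 0.342% passed by edgeR, in either direction. Of all 22 markers, 21 had an estimate above 0, with a median of 0.64. At an unadjusted p under 0.05 there were 19 of 22, against 11.3% of all tested genes. Without HFD 3 the number that passed was 8, against 1.69% of the genes then tested, and DESeq2 called 16, against 1.65% of all genes. The markers summed to 504 to 663 CPM in Trp, 386 to 396 CPM in IPA and 357 to 406 CPM in HFD, so that every Trp library was above every other library. Markers of several other cells and regions also lay mostly to one side of 0 for Trp against HFD. Below 0 were 8 of 10 oligodendrocyte markers (median -0.32). Above 0 were 11 of 11 striatal (median 0.42), 8 of 8 choroid plexus (0.80), 2 of 10 hippocampal (-0.29) and 2 of 8 endothelial markers (-0.32). Neuron and astrocyte markers lay on both sides, each with 4 of 10 above 0 (medians -0.03 and -0.09). By edgeR 0 of all these markers passed. At an unadjusted p under 0.05 there was 1 oligodendrocyte marker (Mbp) and 1 hippocampal marker, both lower. There were also 1 higher and 2 lower endothelial markers, and 2 higher and 1 lower for neurons and for astrocytes. DESeq2 called Mbp and the hippocampal marker Grp, both lower. Mbp, a myelin protein gene, was lower in all Trp mice than in all HFD mice (log2 fold change -0.59, edgeR adjusted p 0.181). The part of these markers in the cathepsin levels was not tested. In bulk tissue, fewer or more cells of a type and less or more RNA per cell cannot be told apart.

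For Trp against HFD, single microglia markers had log2 fold changes near the 1.10 of Ctss, among them Gpr34 with 1.00, Selplg with 0.92, Itgam with 0.92 and P2ry13 with 0.91. Ctss minus the mean log2 CPM of the 22 markers was 1.43, 1.38 and 1.33 in Trp 1 to 3, with 1.07, 1.02 and 1.22 in the IPA mice and 0.64, 0.89 and 1.12 in the HFD mice. The group means of this quantity differed by 0.50 between Trp and HFD. As Ctss was chosen for its difference between these groups, nothing is read from its distance to a mean over markers. The marker mean itself was 4.27 ± 0.22 in Trp and 3.68 ± 0.10 in HFD (SD, n = 3 each), a difference of 0.60. For the other 9 genes the difference relative to the marker mean was below 0, from -0.25 for Ctsz to -0.60 for Ctsf. Ctsb minus the marker mean, for example, averaged 5.19 in Trp and 5.64 in HFD. As the marker mean was itself 0.60 higher in Trp, a gene that was level between the groups also falls below 0 here. Nothing is therefore read from these signs. The part of the microglial transcripts in the level of Ctss was not tested.

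**Figure D4:**
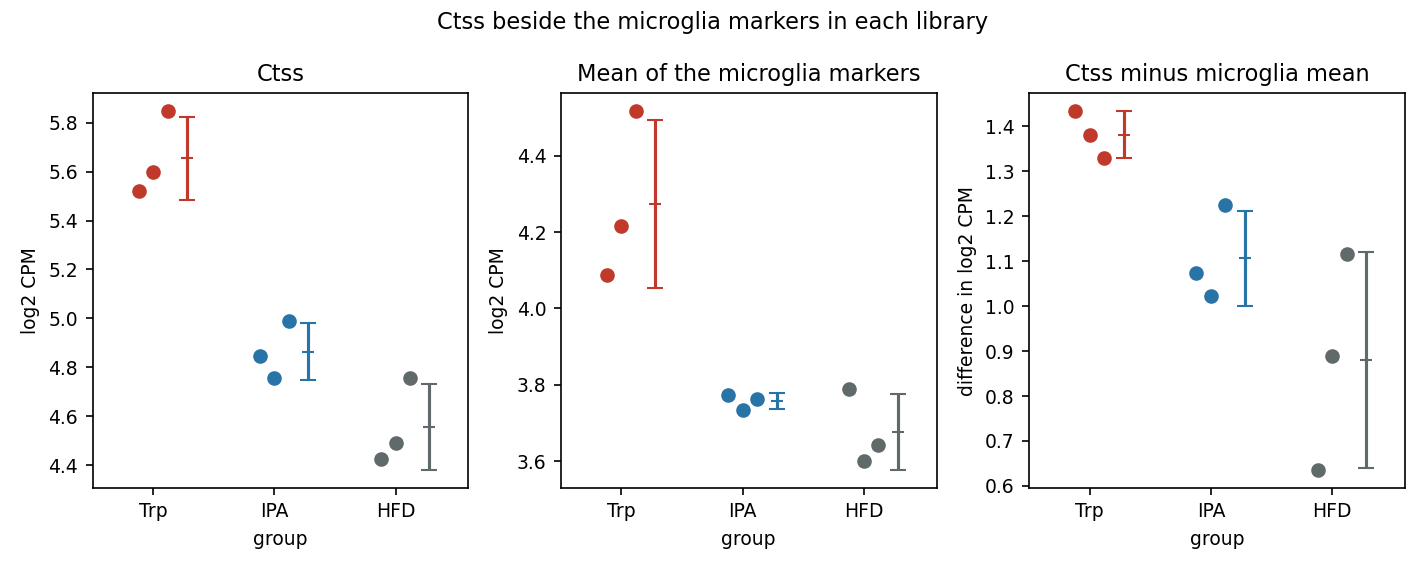
Ctss (left), the mean of 22 microglia markers (middle) and their difference (right) in every library, in log2 CPM, with points for single mice and bars for the group mean ± SD. Trp mice are highest in all 3 panels, and in the difference they span 1.33 to 1.43, against 1.02 to 1.22 in IPA and 0.64 to 1.12 in HFD mice.

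Markers of other myeloid cells and of blood were measured as well. The 9 markers of macrophages at the brain's borders summed to 11.0 to 13.8 CPM in Trp, 8.30 to 10.1 CPM in IPA and 10.3 to 11.7 CPM in HFD. Every Trp library was above every IPA library, and Trp and HFD overlapped. The 14 markers of blood leukocytes, lymphocytes included, summed to 0.705 to 1.08 CPM in Trp, 0.225 to 0.449 CPM in IPA and 0.899 to 2.18 CPM in HFD. Of these 14, 2 had 0 counts in every library and only 1 had enough reads to be tested. The leukocyte sums thus rest on few reads, and nothing is read from their order. The part of these cells in the level of Ctss was not tested.

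The genes whose pattern over the 9 libraries was most like that of Ctss were found by Pearson's r of log2 CPM among 11909 genes with a mean FPKM of at least 1. Among the 10 highest were Rnase4 (r = 0.985), Aifm1 (0.971), Fcgr3 (0.956), C1qa (0.948), Gpr34 (0.947), Cd53 (0.942), Cstb (0.935), Bbs12 (0.932) and Ang (0.931). Rnase4 and Ang are ribonucleases of a shared locus, and C1qa, Gpr34 and Cd53 are among the microglia markers. Rnase4 stood at 16.3, 17.3 and 18.5 CPM in Trp 1 to 3, with 11.5, 12.0 and 12.8 CPM in the IPA mice and 8.60, 9.16 and 11.1 CPM in the HFD mice, the same order of groups as Ctss. The median r with Ctss was 0.87 over the 22 markers and -0.005 over all 11909 genes. These values share libraries and group differences, among them the one for which Ctss was chosen, and the genes are not independent. Nothing is therefore read from the 2 medians. For deviations from the group means, r with Ctss was 0.90 for Rnase4, 0.84 for Aifm1, -0.05 for Fcgr3, 0.59 for C1qa and 0.86 for Gpr34. It was 0.82 for Cd53, 0.73 for Cstb, 0.87 for Bbs12 and 0.63 for Ang.

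Ctsb and Ctsd were most like other genes. For Ctsb these were Cwh43 (r = 0.969), Nmnat1 (0.938), Ddx24 (0.934), B9d1 (0.933) and Lrpap1 (0.911). For Ctsd they were Osbpl7 (0.927), Ndufb8 (0.920), Tmem205 (0.918), Pold4 (0.915) and Ppp1r18 (0.914). With the mean of the microglia markers, r over the 9 libraries was 0.92 for Ctss, 0.82 for Ctsz and 0.78 for Ctsh. It was 0.74 for Ctsb, 0.73 for Ctsl, 0.72 for Ctsd, 0.51 for Ctsa, 0.27 for Ctsc, 0.26 for Ctsf and -0.02 for Ctso. These values include the group difference for which Ctss was chosen. For deviations from the group means, r was 0.57 for Ctsa, 0.52 for Ctsh, 0.51 for Ctsd, 0.47 for Ctsz and 0.46 for Ctss. It was 0.40 for Ctsb, 0.21 for Ctsf, 0.06 for Ctsl, -0.37 for Ctsc and -0.54 for Ctso.

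Of 13 further cathepsin genes, 11 had 0 counts in all 9 libraries: Ctse, Ctsg, Ctsj, Ctsm, Ctsq, Ctsr, Ctsll3, Cts3, Cts6, Cts7 and Cts8. Several of these are known in the mouse from the placenta. Ctsw, known from cytotoxic lymphocytes, had 0 to 10 counts. Ctsk, the collagenase of osteoclasts and the neighbour of Ctss on chromosome 3 at 17424 bases, had 107 to 230 counts. It stood at 2.75, 2.56 and 4.63 CPM in Trp 1 to 3 and at 3.51, 3.85 and 4.32 CPM in HFD 1 to 3. Its values overlapped, and its log2 fold change was -0.23 (SE 0.23, edgeR adjusted p 0.767).

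Of 17 inhibitors of cathepsins, 9 were tested. For Trp against HFD 0 passed by edgeR and by DESeq2, and 3 had an unadjusted p under 0.05, all with estimates above 0. Of all tested genes 11.3% had an unadjusted p that low, in either direction. Cstb, the cystatin B of the cytosol, averaged 22.8 CPM in Trp and 18.3 CPM in HFD (log2 fold change 0.32, edgeR adjusted p 0.251). Cst3, the secreted cystatin C, averaged 1115 CPM in Trp and 915 CPM in HFD (0.29, edgeR adjusted p 0.304). Serpinb6a, a serpin, averaged 40.9 CPM in Trp and 35.1 CPM in HFD (0.22, edgeR adjusted p 0.381). All 3 had no overlap between Trp and HFD mice.

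Genes that sort and activate cathepsins showed small differences. Of 20, 15 had an estimate above 0 with a median log2 fold change of 0.06, and 0 passed by edgeR or DESeq2 or had an unadjusted p under 0.05. An unadjusted p that low was found for 11.3% of all tested genes. Vps35, of the retromer that returns sorting receptors to the Golgi, had a log2 fold change of 0.17 (edgeR adjusted p 0.529). Lgmn, the asparaginyl protease that processes cathepsin precursors, had one of 0.16 (edgeR adjusted p 0.561), and M6pr, the small mannose 6-phosphate receptor, one of 0.12 (edgeR adjusted p 0.628).

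Among 30 further lysosomal hydrolases, 23 had an estimate above 0 for Trp against HFD and the median was 0.10. By edgeR 1 passed, against 0.342% of all tested genes. At an unadjusted p under 0.05 there were 5 above and 2 below 0, against 11.3% of all tested genes in either direction. Arsb, a sulfatase, stood at 86.2 CPM in Trp and 103 CPM in HFD (log2 fold change -0.25, edgeR adjusted p 0.232), and Dpp7, a dipeptidyl peptidase, at 15.2 CPM in Trp and 11.1 CPM in HFD (0.44, edgeR adjusted p 0.273).

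In the membrane and the proton pump of the lysosome 0 of 17 and 0 of 18 genes passed by edgeR or DESeq2. At an unadjusted p under 0.05 there were 1 and 2, against 11.3% of all tested genes. The medians were 0.07 and 0.04. Ctns, the cystine carrier, had a log2 fold change of 0.35 (edgeR adjusted p 0.363), Cd68, a macrophage lysosome glycoprotein, 0.42 (edgeR adjusted p 0.478), and the pump subunit Atp6v0e 0.43 (edgeR adjusted p 0.242). Without HFD 3, Atp6v0e passed, where 1.69% of the genes then tested passed. Of the TFEB and autophagy genes 15 of 16 were tested and 0 passed by edgeR or DESeq2 or had an unadjusted p under 0.05. Their median was -0.03, and Tfeb itself stood at -0.19 (edgeR adjusted p 0.786).

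The MHC class II genes, whose invariant chain (Cd74) is a known substrate of cathepsin S, were low and varied. Their 10 genes summed to 15.1 to 17.8 CPM in Trp, 13.2 to 17.7 CPM in IPA and 15.9 to 18.8 CPM in HFD. For Trp against HFD 0 passed by edgeR or DESeq2, and 3 of 10 estimates were above 0, against 49.5% of all tested genes. At an unadjusted p under 0.05 there was 1 (H2-DMb1, log2 fold change 0.95, edgeR adjusted p 0.234), against 11.3% of all tested genes. Cd74 averaged 1.76 CPM in Trp and 1.91 CPM in HFD, with a log2 fold change of -0.12 (SE 0.41, edgeR adjusted p 0.954). Cd74 rested on 25 to 133 counts per library.

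**Figure D5:**
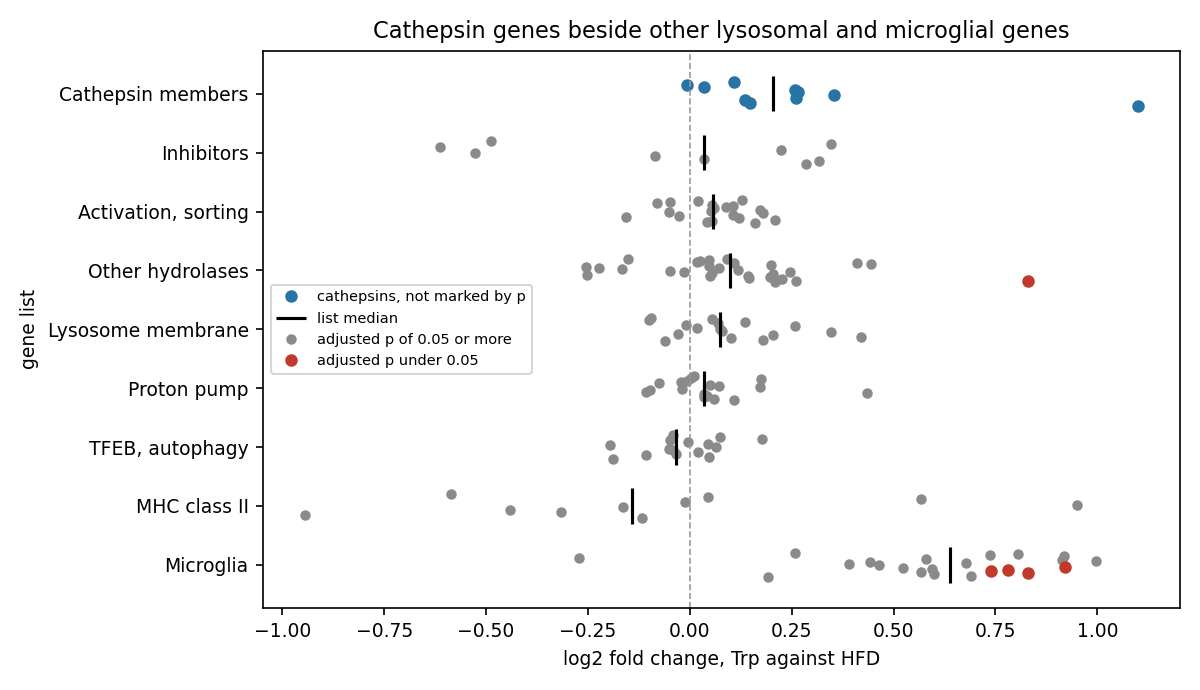
Log2 fold change of Trp against HFD (x axis) for the tested genes of each list (rows): the 10 cathepsins, their inhibitors, sorting and activation genes, other lysosomal genes, MHC class II and microglia markers. Each point is a gene, blue for the cathepsins, which are not marked by p, and otherwise red where its edgeR adjusted p is under 0.05 and grey where not, and black bars are list medians, at 0.20 for the cathepsins and 0.64 for microglia.

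For Trp against IPA and IPA against HFD 0 of the 120 tested genes of the pathway lists passed by edgeR, with 11 and 9 at an unadjusted p under 0.05. Of all tested genes 4.49% and 10.4% had an unadjusted p that low. DESeq2 called 1 of the 120 for Trp against IPA, against 0.0803% of all tested genes, and 0 for IPA against HFD, against 0.899%. Of the microglia markers it called 7 for Trp against IPA and 0 for IPA against HFD, where edgeR called 0 in both. At an unadjusted p under 0.05, 21 of the 22 microglia markers had a difference for Trp against IPA and 0 for IPA against HFD. The shares of all tested genes were again 4.49% and 10.4%. The marker mean was 4.27 ± 0.22 in Trp and 3.76 ± 0.02 in IPA (SD, n = 3 each), and the group means of Ctss minus the marker mean differed by 0.28. For IPA against HFD, 11 of 11 striatal (median 0.73) and 8 of 8 choroid plexus markers (1.04) had estimates above 0. So had 1 of 10 hippocampal (-0.93), 1 of 8 endothelial (-0.38) and 2 of 10 oligodendrocyte markers (-0.18). Neuron and astrocyte markers lay on both sides, and by edgeR 0 of these markers passed. Their part in the cathepsin levels was not tested.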

How the data were processed

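RNA-seq of 9 libraries was used, 3 mice in each of 3 groups named by the labels. The authors deposited, per the file headers, 1 table with whole-number counts per gene and library, and FPKM, which correct fragments for gene length and depth. It also holds a log2 fold change, q-value and call of the authors for Trp and for IPA against HFD, whose sign runs over HFD. Per the submitters' processing notes, StringTie 2.1.3b and build mm10 were used, but gene starts differ from an annotation of that build, so the build of the table's coordinates is not settled. An aligner, a counter and a strand setting were not given in the sources used here. All library columns were mapped, with 0 left over.

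The 10 genes and all gene lists were chosen with earlier results of these data known. Counts went into edgeR 4.0.16 under R 4.3.3, where filterByExpr (minimum count 10) kept 18690 genes, libraries were scaled by TMM, and a robust quasi-likelihood model with 1 mean per group and no covariate was fitted to all 9 libraries. Tests were two-sided with Benjamini-Hochberg adjustment over all tested genes, and passed at an adjusted p under 0.05. CPM are counts per 1000000 of the TMM-scaled library size, log2 CPM used a prior count of 2, and SDs are over 3 libraries. An exact permutation test of 3 against 3 cannot give a p below 0.1 and was not used. Total counts were 40621084 to 50938746 per library. Libraries of a group differed by more than counting error, so that the spread between mice and not depth sets the precision.

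Genes named beside the family are every further listed cathepsin, each list gene that passed, and up to 3 per list with the smallest p for Trp against HFD. 1 gene that these rules name is not reported here. Genes like Ctss, Ctsb and Ctsd are those with the highest Pearson r, pseudogenes and predicted genes left out. Alternatives were DESeq2 1.42.0, RLE and upper quartile scaling, no filter, genes of mean FPKM 5 or more, limma-trend (limma 3.58.1) on log2 FPKM with pseudocounts of 0.5, 0.1 and 1, fits to the 6 libraries compared only, a block for the replicate number, each library left out, and adjusted p under 0.01 and 0.1. The refit of the gene lists without HFD 3 was chosen after seeing the data. The procedure was tested on simulated data. Python 3.11.15 with matplotlib 3.10.9 drew the figures.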

Additional observations from a re-analysis of the deposited data

How the results depend on the processing

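For Trp against HFD the log2 fold change of Ctss, the value the family was chosen on, ran from 1.00 to 1.21 over all alternatives, and the number of all genes called depended strongly on the method. That number was 64 with all libraries, 309 by DESeq2, 97 with no filter, 30 at a mean FPKM of at least 5, 8 in the 6 libraries compared, 12 at an adjusted p under 0.01 and 119 at 0.1, and it ran from 13 to 323 when a library was left out, highest without HFD 3 and lowest without Trp 2. Of the 10 cathepsins, 1 to 2 passed when a library was left out, the second being Ctsl without HFD 3 (log2 fold change 0.35). Of the genes then tested 1.69% passed, and nothing is read from the members that did. For IPA against HFD 1 gene was called with all libraries, 168 by DESeq2, 6 with no filter, 2 in the 6 libraries compared, 2 at an adjusted p under 0.1, and 0 at a mean FPKM of at least 5 and at an adjusted p under 0.01, with a range of 0 to 52 when a library was left out. For Trp against IPA the number was 0 with all libraries, 15 by DESeq2, 3 with no filter, 2 by limma-trend with each pseudocount, and 0 to 1 when a library was left out. Of the cathepsins 1, Ctss, was called in Trp against IPA by DESeq2 and with no filter, and 0 to 1 when a library was left out, Ctss without HFD 3. The cause of these differences between methods was not tested.

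Estimates near 0 changed sign. For Ctso in Trp against IPA the log2 fold change was 0.0028 with all libraries, -0.0012 with RLE scaling and -0.0012 by DESeq2, and it ran from -0.076 to 0.079 when a library was left out. For IPA against HFD the ranges with a library left out were -0.29 to 0.23 for Ctsc, -0.13 to 0.060 for Ctsh, -0.13 to 0.0077 for Ctsd and -0.0081 to 0.10 for Ctsb. For Trp against HFD, Ctsf reached 0.084 by limma-trend on FPKM, and Ctsa fell to -0.017 with a library left out. Among the 10 genes Ctsc, with the fewest counts (176 to 382), had a coefficient of variation of its CPM of 13.7% in Trp, 29.3% in IPA and 28.6% in HFD.

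The replicate numbers did not pair the mice: deviations from the group means of libraries with the same number correlated from -0.385 to 0.186. With the replicate block, 23 genes were called for Trp against HFD, Ctss among them, and 0 for IPA against HFD.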
